A study of Mus musculus with 44 samples.

Results

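Mouse cortical cultures depolarized with KCl for 30 min were compared directly with cultures depolarized for 10 min, without passing through an unstimulated control. The members were chosen from the labels, as the RNA-seq, ribosome-profiling and TAIL-seq libraries of the kcl10 and kcl30 cultures, which gave 6 of the 44 samples in the series. Both cultures were cortical cultures at day in vitro 10 (DIV10), stimulated with KCl and harvested after 10 or 30 min. According to the methods of the study, such cultures were grown from dissociated cortices of newborn pups of both sexes, treated with AraC against dividing cells. The study names C57BL6J as its mouse strain. The genotype of these cultures and the KCl concentration are not given in the sources used here. The series as a whole set translation and poly(A)-tail length against each other in mouse brain and cultured neurons. Each time point was 1 culture with 1 library per assay, so the 3 assays share the culture, no spread between cultures is known, and time and culture cannot be told apart. No statistical test was run. A gene was counted as changed when it passed a fixed fold, and intervals and SEs cover counting error only. The unstimulated DIV10 culture (0 min) is given beside some values as a level.

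Raised extracellular potassium depolarizes neurons and opens voltage-gated calcium channels, and the calcium that enters activates kinases that phosphorylate CREB, SRF partners and other factors already bound to DNA. Immediate-early genes are then transcribed without new protein synthesis. The early wave encodes mostly transcription factors (the Fos, Jun, Egr and Nr4a families and Npas4), and a smaller set encodes products that act directly at synapses or on kinases, such as Arc and Dusp1. New mRNAs leave the nucleus with long poly(A) tails that are then shortened, and their translation is read from ribosome-protected fragments (RPFs).

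The RNA-seq libraries held 530981 reads on genes at 10 min and 803062 at 30 min, the RPF libraries 5515106 and 3048428, and the TAIL-seq libraries 574544 and 776935 tags. A tag is the sequenced 3′ end of an mRNA together with its tail, so tags give a measure of mRNA level besides RNA-seq. Levels below are in CPM, reads or tags scaled to 1000000 on genes in each library. Neuronal markers summed to 5529 CPM in RNA-seq at 10 min and 6031 at 30 min, and all 16 were detected in both. Fibroblast and meningeal markers, 9 genes with most of their reads on Vim and Igfbp2, had a lower sum at 30 min in every assay, at 0.68 times the 10 min level in RNA-seq (95% counting interval 0.64 to 0.72), 0.73 in RPFs (0.71 to 0.74) and 0.69 in tags (0.66 to 0.73). Of the fibroblast list, Col1a1, Col1a2 and Col3a1 went the other way in RNA-seq, from few reads. Oligodendrocyte-lineage markers were at 0.51, 0.84 and 0.78 times in the same order of assays. The endothelial list, with most of its reads on Acta2, was at 0.77, 0.84 and 0.63 times. Microglial markers were scarce, with 56 and 63 RNA-seq reads over 12 genes. Of 12 stable reference genes, 9 were tested in RPFs, 8 in tags and 6 in RNA-seq, and none passed 2-fold. In bulk cultures fewer cells of a type and less RNA per cell cannot be told apart.

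RPFs and tags separated the 2 time points at few genes. Of 7675 genes with at least 10 RPM of RPFs in either culture (reads scaled by the authors to their total of mapped reads), 26 were at least 2-fold higher at 30 min and 5 at least 2-fold lower. Of 3711 genes with at least 50 tags in either culture, 23 were higher and 5 lower. RNA-seq put 39 genes higher and 157 lower of 5362 tested. Its minimum of 10 RPM was 24.2 reads at 10 min and 58.1 at 30 min, a larger share of the reads on genes at 30 min. Entry through the 10 min culture was thus easier, which favours genes lower at 30 min. With at least 30 RPM in either culture, 4 were higher and 11 lower of 1829. The SD of the log2 ratio over all genes was 0.30 for RPFs, 0.32 for tags and 0.45 for RNA-seq. Of 3377 genes tested in both RPFs and tags, 10 were at least 2-fold higher in both (0.296% of those tested) and 0 were lower in both. All 10 belonged to the lists of immediate-early genes: Fos, Fosb, Junb, Egr1, Egr2, Egr4, Nr4a1 and Ier2, Arc, and Dusp1. These lists hold 82 genes found in the files, 31 of them tested in both RPFs and tags. Of the 10, only Fos and Egr1 reached 50 tags in both cultures. The others passed the filter on tags through the 30 min culture alone, so such counts favour genes higher there. Because the lists were drawn up with earlier results of these data known, their direction is no independent evidence.

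The promoters of the early genes that were at least 2-fold higher in RPFs or tags are shown for the core of the cyclic AMP response element, TGACG, to which CREB binds. The 8 genes with a promoter window in the RefSeq table for GRCm38.p6 each held this core on at least 1 strand between 250 bases before and 50 bases after the annotated start (Egr1, Ier2 and Arc had no window). In each 25-base stretch 1 match, the core or its reverse complement CGTCA nearest upstream of the start, is in capitals, written 5′ to 3′ along the gene's strand. Other matches in the same stretch (Npas4, Dusp1) are left in lower case.
Fos, chr12:85473814-85473838, plus strand: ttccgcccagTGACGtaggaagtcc
Fosb, chr7:19310091-19310115, minus strand: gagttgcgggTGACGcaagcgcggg
Junb, chr8:84978840-84978864, minus strand: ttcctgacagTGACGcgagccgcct
Egr2, chr10:67537804-67537828, plus strand: tgggcagcgaCGTCAcgggtattga
Egr4, chr6:85513684-85513708, minus strand: tggtcatttaCGTCAcggcgccagg
Npas4, chr19:4990126-4990150, minus strand: cgtcacgggaTGACGtcggaagtct
Nr4a1, chr15:101266796-101266820, plus strand: cctctccatgCGTCAcggagcgctt
Dusp1, chr17:26508598-26508622, minus strand: gggcgggtgaCGTCAccgcccggtc

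The core is short and common. It stood in at least 1 window of 14 of the 29 early genes (48.3%) that had a window and were tested but not 2-fold higher. The share was 37.7% of all 6372 tested genes with a window. Of all 32851 windows counted singly, 20.8% held it. A gene can have more than 1 window, so that share is not comparable with the shares of genes. This search was added after the data were seen. The full palindrome TGACGTCA, which contains the core on both strands, was found in 1 of the 8 genes (Dusp1), in 6 of the 29 and in 3.77% of the tested genes with a window. The SRF site known as the CArG box was found in 1 of the 8 (Egr2), in 0 of the 29 and in 1.55% of the tested genes. A match is a description of letters in this window.

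Fos, Fosb and Junb rose the most steeply of the genes for AP-1, a dimeric transcription factor. Fos RPFs stood at 27.7 CPM in the unstimulated culture, 60.9 at 10 min and 937 at 30 min, a 15.4-fold difference between the stimulated cultures (13.7 to 17.3). Its tags stood at 66.1, 120 and 838 CPM, a 6.98-fold difference (5.44 to 9.08), and its RNA-seq reads at 13.4, 43.3 and 245 CPM, a 5.66-fold difference (3.67 to 9.14). The 10 min culture was thus nearer to the unstimulated level than to the 30 min level in all 3 assays. Junb followed, with 48.6 CPM of RPFs at 10 min and 394 at 30 min (8.11-fold, 7.10 to 9.30), 67.9 and 412 CPM of tags (6.07-fold, 4.34 to 8.69) and 65.9 and 205 CPM of RNA-seq (3.12-fold, 2.15 to 4.63). Fosb was scarcer. It had 34 RPFs at 10 min and 305 at 30 min (16.2-fold, 11.4 to 23.9) and 5 and 59 tags (8.73-fold, 3.54 to 27.9). Jun differed by less than 2-fold, with 1.64-fold more RPFs (1.49 to 1.81) and 1.42-fold more tags (1.11 to 1.82), and its RNA-seq level was 0.98 times that at 10 min. Jund, which is expressed at rest, was at 0.94 times its 10 min level in RPFs (0.79 to 1.12).

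**Figure D1:**
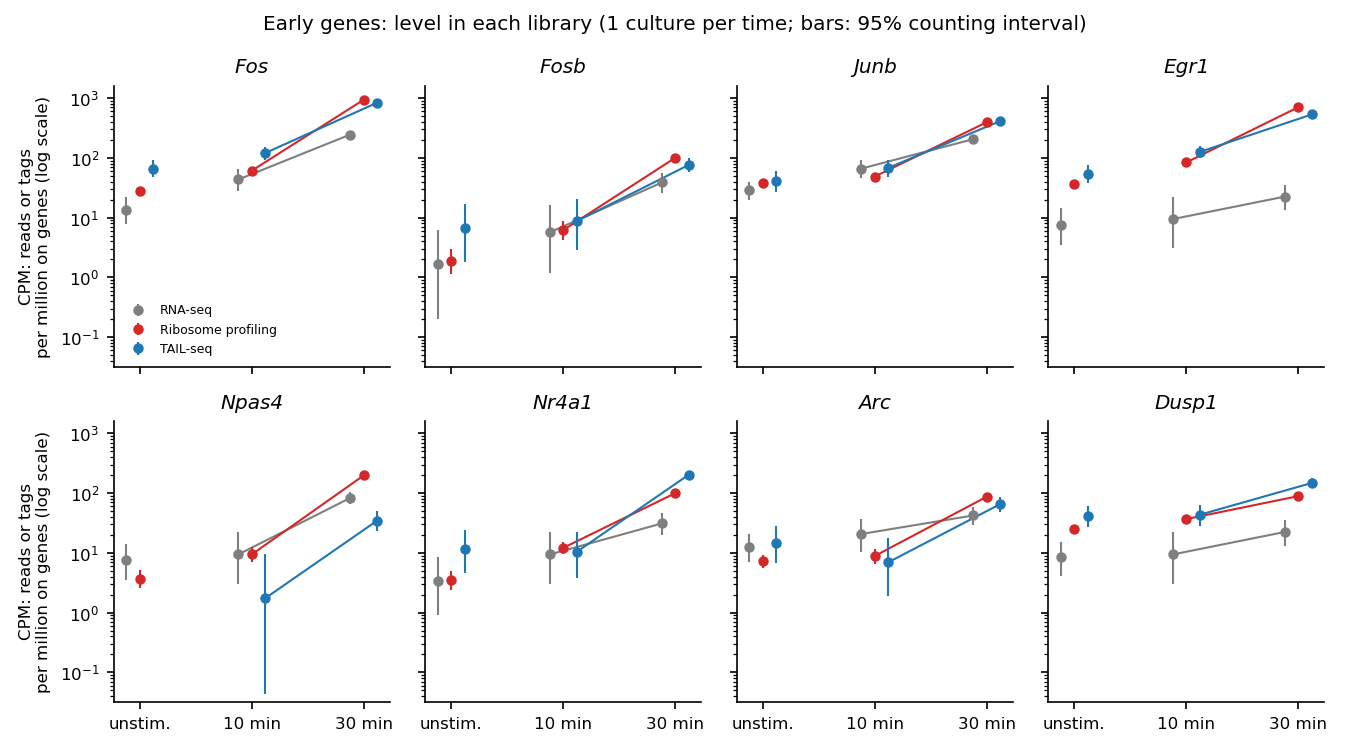
Level of 8 early genes in the unstimulated, 10 min and 30 min cultures, in CPM on a log axis, for RNA-seq (gray), ribosome profiling (red) and TAIL-seq (blue). Points are single libraries, bars are 95% counting intervals, lines join the 2 stimulated cultures, and a library with no count is not drawn (Npas4 tags, unstimulated). RPFs and tags of all 8 genes lie higher at 30 min than at 10 min, from 2.42-fold for Dusp1 RPFs to 21.0-fold for Npas4 RPFs.

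The plot of early genes by library shows the same step for the zinc-finger factors of the Egr family. Egr1 RPFs stood at 36.0 CPM in the unstimulated culture, 83.8 at 10 min and 704 at 30 min, an 8.40-fold difference (7.59 to 9.31). Its tags stood at 54.6, 125 and 532 CPM, a 4.24-fold difference (3.30 to 5.53). Only 5 and 18 RNA-seq reads covered Egr1 at 10 and 30 min, a ratio of 2.38 whose interval of 0.85 to 8.20 includes 1. Egr2 was higher by 9.69-fold in RPFs (6.44 to 15.1) and 4.52-fold in tags (2.22 to 10.4), and Egr4 by 5.01-fold (3.78 to 6.69) and 5.51-fold (2.93 to 11.5). Egr3 stayed under 2-fold in RPFs, at 1.47-fold (1.05 to 2.04). With 13 tags at 10 min and 39 at 30 min it missed the filter on tags, and the ratio was 2.22 (1.16 to 4.53). Its RNA-seq reads also missed the filter and went the other way, with 8 and 2 reads, a ratio of 0.165 (0.017 to 0.83).

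Npas4, a factor found in neurons and induced selectively by calcium entry, had the largest ratio of all genes tested in RPFs. Its RPFs numbered 35 in the unstimulated culture, 52 at 10 min and 605 at 30 min, and the difference in CPM between the stimulated cultures was 21.0-fold (15.8 to 28.5). Its RNA-seq reads numbered 9, 5 and 67, an 8.86-fold difference (3.61 to 28.2), and its tags 0, 1 and 27, a ratio of 19.97 whose counting interval runs from 3.29 to 817. The orphan nuclear receptor Nr4a1 had 33, 67 and 305 RPFs, an 8.24-fold difference (6.30 to 10.9), and 7, 6 and 158 tags, a 19.5-fold difference (8.75 to 53.9). Its relative Nr4a3 had 62.7 and 92.5 CPM of RPFs (1.47-fold, 1.26 to 1.73). Ier2, a nuclear protein of the early response, was 4.25-fold higher in RPFs (3.38 to 5.37) and 3.10-fold higher in tags (2.14 to 4.59).

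The list of early transcription factors holds 28 genes and also takes in Btg2, an antiproliferative protein. Of these, 9 of the 19 tested in RPFs were at least 2-fold higher, where 0.339% of all tested genes were. In tags 8 of 15 were, against 0.62% of all tested genes, and in RNA-seq 3 of 6 (Fos, Junb and Npas4), against 0.727%. None of those that passed the filters was at least 2-fold lower, where 0.0651% of all genes tested in RPFs, 0.135% in tags and 2.93% in RNA-seq were. The median log2 ratio of the members tested was 0.72 in RPFs, 1.63 in tags and 0.86 in RNA-seq, beside 0.04, 0.04 and -0.05 over all genes. Summed over all 28 genes, without a filter, RPFs were 3.69-fold higher (3.56 to 3.81), tags 2.70-fold (2.49 to 2.93) and RNA-seq reads 1.68-fold (1.48 to 1.90). Klf6 was flat, at 1.04-fold in RPFs and 1.01-fold in tags, and so was Btg2, at 1.06-fold and 1.08-fold.

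Among 30 early effector genes found in the files, Arc alone passed 2-fold in RPFs, of 18 tested, and in tags, of 8 tested. Arc encodes a capsid-forming protein that acts at dendritic spines. Its RPFs numbered 69, 49 and 266, a 9.82-fold difference between the stimulated cultures (7.22 to 13.6), and its tags 9, 4 and 51, a 9.43-fold difference (3.47 to 35.9). Gadd45g, a growth arrest and DNA damage protein, was the effector past 2-fold in RNA-seq, of 10 tested, at 2.05-fold (1.21 to 3.65). It was at 1.88-fold in RPFs (1.56 to 2.26) and 1.85-fold in tags (1.28 to 2.71), and with Fos and Junb it made up the 3 genes at least 1.5-fold higher in all assays. The secretory granule protein Scg2 was 1.45-fold (1.29 to 1.64), 1.32-fold (1.26 to 1.38) and 1.15-fold (1.01 to 1.30) higher in RNA-seq, RPFs and tags. The kinase Plk2 was 1.20-fold higher in RPFs (1.12 to 1.29) and 1.00 times in tags (0.78 to 1.28). The synaptic scaffold gene Homer1 was at 1.15-fold in RPFs (0.84 to 1.56), Rgs2, a brake on G-protein signalling, at 1.11-fold (0.99 to 1.23), and the secreted peptide precursor Vgf at 1.03-fold (0.97 to 1.08). The median log2 ratio of the effectors tested in RPFs was 0.24, beside 0.04 over all genes.

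Dusp1, the phosphatase that inactivates MAP kinases, was the member of the feedback list past 2-fold, of 8 tested in RPFs and 5 in tags. Its RPFs stood at 25.4, 36.8 and 89.2 CPM (2.42-fold between the stimulated cultures, 2.01 to 2.92) and its tags at 41.3, 43.5 and 148 (3.40-fold, 2.19 to 5.47). Dusp6 was at 0.99 times its 10 min level in RPFs (0.85 to 1.15), Spry2 at 1.35-fold (1.06 to 1.72), and Spred1 at 1.76-fold (1.23 to 2.51) with tags at 1.05-fold (0.75 to 1.46). The early list of mRNA-decay recruiters is mixed, and takes in Pnrc1 and Ifrd1 as well as genes for proteins that bring deadenylases to mRNAs. None of its 6 genes tested in RPFs passed 2-fold, nor did any of the 4 tested in tags and the 2 in RNA-seq. Pnrc1, a decapping cofactor, was at 1.32-fold (1.12 to 1.56) and Tob1, which binds the CCR4-NOT complex, at 1.00 times (0.85 to 1.17).

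For Fos and Egr1 the RPF ratio exceeded the tag ratio by more than the counting error. The log2 ratio of RPFs minus that of tags was 1.14 ± 0.20 (counting SE) for Fos and 0.99 ± 0.20 for Egr1. The same difference lay within 2 SEs of 0 for Junb (0.42 ± 0.26), Fosb (0.90 ± 0.72), Nr4a1 (-1.24 ± 0.63), Arc (0.06 ± 0.78) and Gadd45g (0.02 ± 0.30), which does not show that their ratios were alike. Over the 1847 genes with at least 50 tags and 10 RPM of RNA-seq in both cultures, the SD of this difference was 0.30. Values for Fosb, Nr4a1 and Arc rest on 4 to 6 tags at 10 min.

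**Figure D2:**
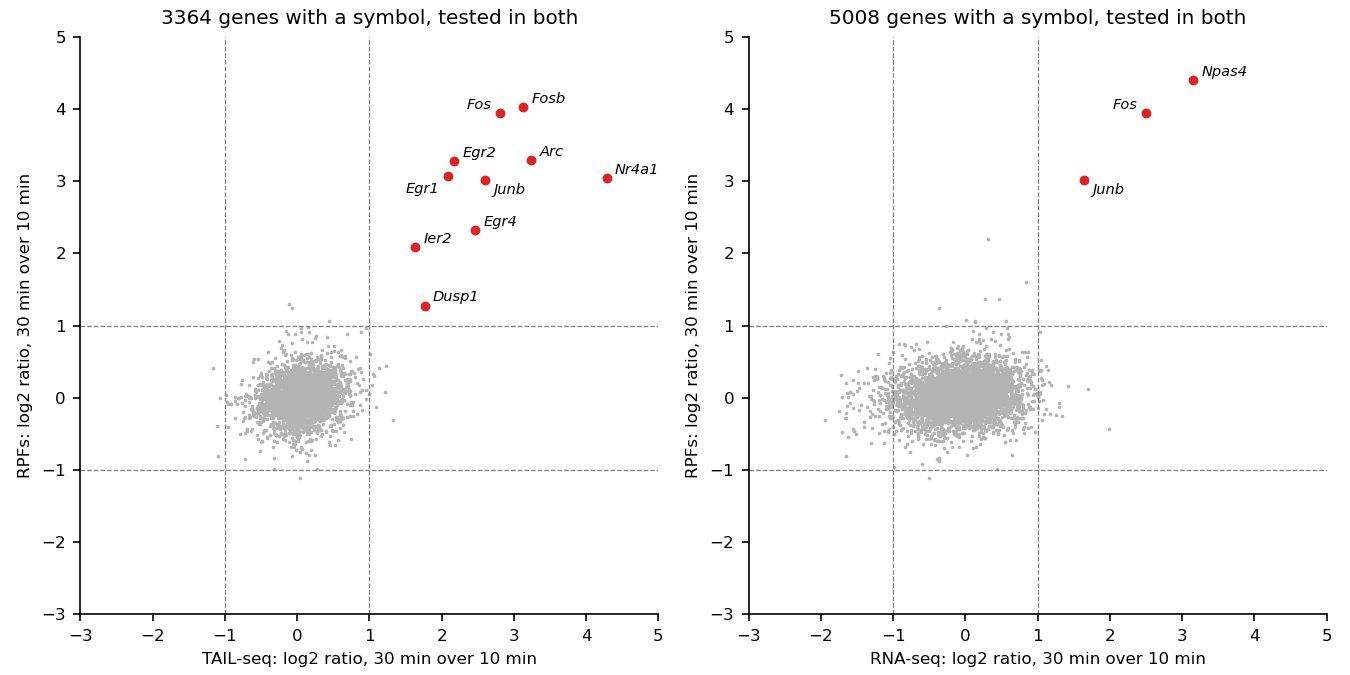
Log2 ratio of 30 min over 10 min for RPFs (vertical axes) against TAIL-seq tags (left) and RNA-seq (right), for genes with a symbol that passed the filter of both. Dashed lines mark 2-fold and red points are genes past 2-fold the same way in both. The 10 genes in the upper right of the left panel are all early genes, and Npas4, Fos and Junb are the 3 on the right.

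The plots of RPFs against the other assays show few genes past 2-fold in more than 1 assay outside the early genes. Of 2862 genes that passed the filter of all 3 assays, 3 were past 2-fold the same way in at least 2: Fos and Junb, higher in all 3, and Ccn2, lower in RNA-seq and tags. Ccn2 encodes a secreted matricellular growth factor, and it stood at 105 and 33.6 CPM in RNA-seq (3.14-fold lower), 148 and 69.5 in tags (2.13-fold lower) and 419 and 239 in RPFs (1.75-fold lower). Its relative Ccn1 was at 0.98, 0.91 and 1.15 times in the same order. The Spearman correlation of the log2 ratios over the 2862 genes was 0.16 between RNA-seq and RPFs, 0.10 between RNA-seq and tags and 0.17 between RPFs and tags, as a description across genes of libraries that share their cultures.

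The 196 RNA-seq calls (3.66% of tested genes, either way) were mostly not past 2-fold elsewhere. Of 134 genes at least 2-fold lower in RNA-seq that were tested in RPFs, 0 were 2-fold lower there, 73 went the same way, and the median RPF ratio was 0.98. Of 69 tested in tags, 40 went the same way and 2 were 2-fold lower. These were Ccn2 and Rab29, a small GTPase that missed the filter on RPFs, and they were also the only 2 of the 5 genes lower in tags that were tested in RNA-seq. Of 35 genes outside the early lists that were higher in RNA-seq, 29 were tested in RPFs, where they ranged from 0.74 to 1.44 times the 10 min level, and 17 in tags, where they ranged from 0.85 to 1.66. Calm2, a calmodulin gene, stood at 337 and 746 CPM in RNA-seq (2.21-fold, 1.87 to 2.63), at 1.30-fold in RPFs (1.21 to 1.40) and at 1.04-fold in tags (0.94 to 1.15). Calm2 was chosen after its values were seen.

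GC content moved with the RNA-seq ratio. Across 5337 genes the Spearman correlation of the RNA-seq log2 ratio with the GC content of the coding sequence was -0.38, and it was -0.26 for RPFs (7639 genes) and 0.04 for tags (3697 genes), which count 3′ ends. The median RNA-seq log2 ratio was 0.19 in the 20% of genes with the lowest coding GC and -0.27 in the 20% with the highest. The genes called lower in RNA-seq had a median coding GC of 56.7%, beside 51.9% for all tested genes. Coding GC was 58.5% for Fos, 64.7% for Junb and 58.4% for Egr1, on the GC-rich side where RNA-seq and RPF ratios were both lower. The part of GC in the ratios of these genes was not tested. Centred within bins of coding GC, a choice added after the data were seen, RNA-seq put 38 genes at least 2-fold higher and 105 lower, in place of 39 and 157.

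**Figure D3:**
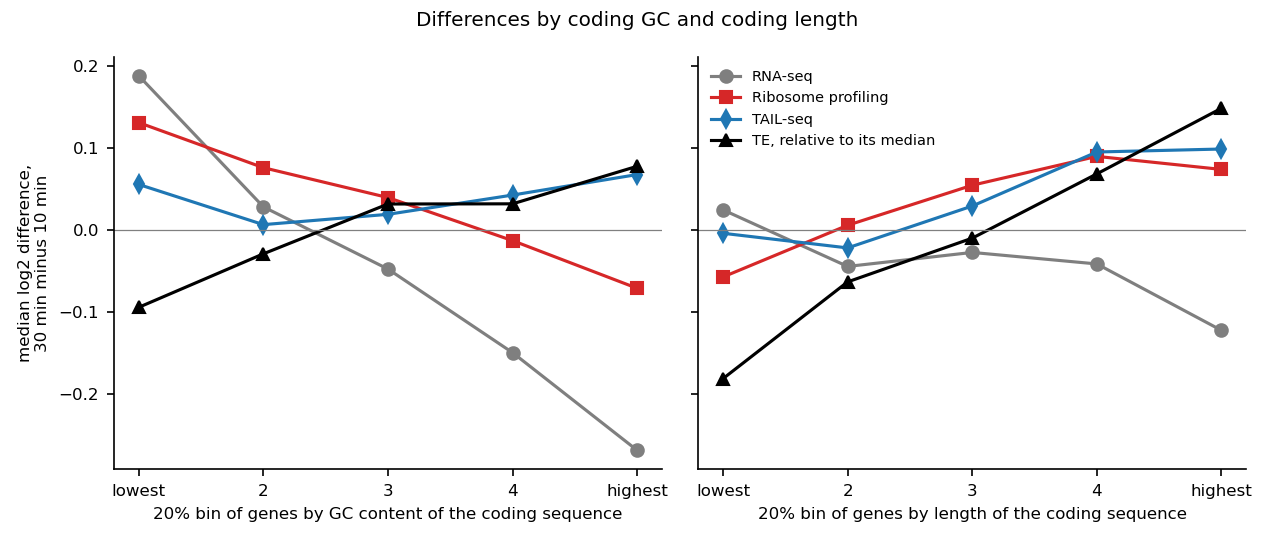
Median log2 difference between 30 and 10 min in 5 bins of genes, each 20% of those tested, by GC content (left) and length (right) of the coding sequence, for RNA-seq, RPFs, TAIL-seq tags and translational efficiency (TE) relative to its own median. RNA-seq falls from 0.19 to -0.27 across the GC bins, and TE rises from -0.18 to 0.15 across the length bins.

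TE, the log2 ratio of RPFs to RNA-seq reads in RPM, was higher at 30 min for 97.6% of genes when taken as it stands. Of 3566 genes with at least 10 RPM in both RNA-seq libraries, 1072 (30.1%) were at least 2-fold higher and 0 lower, and the median difference was 0.79. This shift is arithmetic of the library totals: reads on genes made up 21.9% of the authors' RNA-seq total at 10 min and 13.8% at 30 min, which adds 0.67, and the RPF totals add 0.13. By reads on genes the median was -0.00. Relative to the median, 27 genes (0.757%) were at least 2-fold higher and 34 (0.953%) lower, 61 in all (1.71%). Of 3 early transcription factors tested in TE, 1 was among those higher: Junb, at 1.39 above the median. Its difference of RPFs and tags, given above, lay within 2 SEs of 0. The order of genes was much alike, with a Spearman correlation of 0.93 between TE at 10 and 30 min, and the range from the 1st to the 99th percentile was 60.5-fold at 10 min and 58.5-fold at 30 min. The difference had an SD of 0.40, of which counting error alone gives 0.26.

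Genes with outlying TE differences mostly differed in RNA-seq and little in RPFs. The 10 highest of the 991 genes with at least 30 RPM and 20 RPFs in both cultures were Plxnb2, Azin1, Ephx1, Fscn1, Mlc1, Chst2, Pink1, Scd2, Syt11 and Atp13a2, at 0.66 to 0.91 above the median. Their median RNA-seq ratio was 0.59 and their median RPF ratio 0.99. Plxnb2, a semaphorin receptor, stood at 458 and 240 CPM of RNA-seq and at 485 and 476 CPM of RPFs. Measured against tags instead, 5 of the 9 with enough tags had RPFs higher, and Azin1 was past 2-fold. The 10 lowest were Prdx5, Eef1b2, Zranb2, Fxr1, Sub1, Psmc6, Nefl, Ddn, Cltb and Dstn, at -1.49 to -0.82, with a median RNA-seq ratio of 1.72 and a median RPF ratio of 0.87. Of the 5 with enough tags, all had RPFs lower relative to tags, none by 2-fold. Coding GC had a median of 56.6% in the high group and 46.1% in the low group, and its part was not tested.

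Azin1 was the exception among the 10 highest. It encodes the antizyme inhibitor that keeps ornithine decarboxylase active in polyamine synthesis. Its RNA-seq level was 420 CPM at 10 min and 452 at 30 min (1.08-fold, 0.91 to 1.28) and its tags 383 and 344 (0.90 times, 0.75 to 1.08), while its RPFs went from 27.4 to 52.2 CPM (1.91-fold, 1.52 to 2.396). The unstimulated culture had 55.1 CPM of RPFs, so the 30 min value stood near the unstimulated value and the 10 min value below both.

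mRNAs of the translation machinery had a lower sum of RPFs at 30 min at nearly the same sum of tags, with no single gene past 2-fold in RPFs. Most of them are TOP mRNAs, which start with a pyrimidine tract and are translated according to mTOR signalling. Of the 12 elongation factors and other non-ribosomal TOP mRNAs tested in RPFs, all 12 had a log2 ratio below that of the median gene, though none reached 2-fold, and their median was -0.39. Their RPFs summed to 4692 CPM at 10 min and 3258 at 30 min, or 0.69 times (0.68 to 0.71), while their tags summed to 4703 and 4747, or 1.01 times (0.96 to 1.06), and their RNA-seq reads to 5576 and 5219, or 0.94 times (0.89 to 0.98). In the unstimulated culture the sums were 4616 RPFs and 4841 CPM of tags.

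Eef1a1, which delivers aminoacyl-tRNA to the ribosome, had the lowest RPF ratio of these. It had 1157 CPM of RPFs in the unstimulated culture, 1255 at 10 min and 687 at 30 min (1.83-fold lower than at 10 min), against 1051 and 1151 CPM of tags at 10 and 30 min. Its RPF log2 ratio minus its tag log2 ratio was -0.9997 ± 0.08. Npm1, nucleophosmin of the nucleolus, had 273 RPFs at 10 min and 87 at 30 min (1.73-fold lower in CPM) with tags at 1.12 times (0.91 to 1.38). Rack1, a protein of the small subunit, was 1.42-fold lower in RPFs with tags at 1.12 times (0.98 to 1.29), and the translocase Eef2 was 1.41-fold lower with tags at 0.98 times (0.87 to 1.11). These genes were chosen after their values were seen, and Eef1a1, Rack1 and Npm1 have near-identical pseudogene copies that could split reads, as do the ribosomal protein genes.

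Ribosomal protein RPFs summed to 0.79 times the 10 min level (0.76 to 0.81) and tags to 0.995 times (0.97 to 1.02), while RNA-seq reads summed to 1.12 times (1.08 to 1.17). Of 85 in the files, 27 passed the filter on RPFs, and 5 of these were above the median of all genes. Their median log2 ratio was -0.23 in RPFs and -0.02 in tags (40 tested), and none passed 2-fold in either assay. In RNA-seq it was 0.16 over 28, beside -0.05 over all genes, and Rps15a and Rps27l were at least 2-fold higher. TE takes in this RNA-seq difference. Relative to the median gene, TE had a median of -0.48 over 19 ribosomal protein genes and -0.38 over 11 other TOP mRNAs, 2 of which (Eef1b2 and Npm1) were at least 2-fold lower. With tags in place of RNA-seq the medians were -0.38 over 14 and -0.48 over 9. Short coding sequences had lower TE differences against RNA-seq, with a Spearman correlation of 0.27 between TE difference and coding length over 3552 genes. With tags in place of RNA-seq it was 0.05 over 1840 genes, and -0.25 with coding GC. Centred within bins of coding length, a choice added after the data were seen, the medians of TE against RNA-seq were -0.30 for ribosomal proteins and -0.31 for the other TOP mRNAs. Mitochondrial ribosomal proteins (median TE -0.25) moved to -0.08 under the same centring, and subunits of oxidative phosphorylation (-0.15) to 0.06, with a change of sign.

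The plot of gene lists sets these beside the marker genes. The fibroblast markers that passed the filters were below 0 in RNA-seq (3 genes), RPFs (6) and tags (2), and their median TE relative to the median gene was 0.17 over 2 genes. The collagens Col3a1 and Col1a2 made up 2 of the 5 genes at least 2-fold lower in RPFs, at 2.505-fold and 2.01-fold. Their RNA-seq reads, below the filter, went the other way, from 11 to 23 for Col3a1 (1.38-fold, 0.65 to 3.14) and from 17 to 50 for Col1a2 (1.94-fold, 1.10 to 3.597). Col1a1 likewise had 4 and 47 RNA-seq reads (7.77-fold, 2.84 to 29.7) with RPFs at 0.54 times (0.45 to 0.64). The 3 collagens had at most 10 tags in either culture. The other 3 were Uqcr11, a small subunit of respiratory complex III, with 77.6 and 36.1 CPM of RPFs (2.15-fold lower) and tags at 1.03 times (0.83 to 1.28), Anxa1 (2.01-fold) and Zfyve26 (2.00-fold). Neuronal markers had a median RPF log2 ratio of 0.00 over 15 genes. These 5 genes and Ccn2 were named because they made up a whole set of calls.

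Genes of the response to eIF2 phosphorylation, some of which are translated through upstream reading frames, gave mixed values. Atf4, the transcription factor of that response, had 264, 134 and 155 RPFs in the unstimulated, 10 min and 30 min cultures, and its level was 2.09-fold higher at 30 than at 10 min (1.65 to 2.66). Its RNA-seq level was 1.48-fold (1.22 to 1.80) and its tags 1.35-fold higher (1.16 to 1.58). Ifrd1 was at 1.69-fold in RPFs (1.21 to 2.36) and 0.95 times in tags (0.70 to 1.29). Ppp1r15a, the phosphatase subunit that reverses the response, was 2.18-fold higher in tags (1.33 to 3.72), while 25 and 15 RPFs gave a ratio of 1.09 (0.53 to 2.14). Ddit4, whose annotated 5′ UTR holds 0 upstream ATGs, was at 0.71 times in RPFs (0.63 to 0.81). Of 15 genes on the list, 9 were tested in RPFs, and Atf4 alone passed 2-fold. Atf4, Ppp1r15a and Ddit4 were chosen after their values were seen. No heat shock gene passed 2-fold, of 8 tested in RPFs, 7 in tags and 7 in RNA-seq, and no cell cycle gene did, of 9 tested in RPFs and 2 in RNA-seq (0 were tested in tags).

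Tails were slightly longer at 30 min for the typical gene. Over 2717 genes with at least 50 tags in both cultures, the median of the mean tail lengths was 103.4 nt at 10 min and 106.2 nt at 30 min, and the median difference was 2.47 nt. At least 10 nt separated the cultures for 460 genes, 346 longer at 30 min (12.7%) and 114 shorter (4.2%). Relative to the median difference the numbers were 197 longer (7.25%) and 194 shorter (7.14%). The files give no spread over tags, so these means carry no error. The SD of the difference was 8.53 nt for genes with 50 to 100 tags in the thinner library and 2.49 nt for the 114 genes with at least 500, none of which reached 10 nt. Synthetic RNAs of fixed tail length gave a gauge of this scale. The 5 with at least 500 tags in both libraries differed by -4.04 to 3.67 nt, and the 5 with fewer, but at least 50, by -18.8 to 9.19 nt. Of the 5 with at least 500, those with means of 108.1 and 103.0 nt at 10 min differed by -0.47 and 0.92 nt.

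Pnrc1 had the largest tail difference of all. Its mean tail was 43.4 nt in the unstimulated culture, 45.5 nt at 10 min and 89.5 nt at 30 min, from 55, 58 and 91 tags, while its tag level in CPM was 1.16 times as high (0.83 to 1.64). The 10 min value was close to the unstimulated value and far below the 103.4 nt median. Btg2, an antiproliferative protein that binds the CCR4-NOT deadenylase, ranked 3rd, with 99.7, 105.1 and 135.1 nt from 58, 66 and 96 tags at 1.08 times the level (0.78 to 1.49). Tob1 of the same family went from 82.0 to 108.5 nt, with 46 tags at 10 min and so short of the filter.

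U-rich elements in 3′ UTRs bind CPEB proteins, which regulate tails in neurons and oocytes. The last such element (TTTTAT or TTTTAAT) of each 3′ UTR is in capitals here, because these 2 genes of the early lists had the largest tail differences with enough tags.
Pnrc1, chr4:33245581-33245603, minus strand: aacttgacTTTTAATctgcaatt
Btg2, chr1:134075341-134075363, minus strand: ttttttgtTTTTAATaaaaatgt
They start 173 nt (Pnrc1) and 491 nt (Btg2) before the annotated end. Either element was present in 57.9% of all 3′ UTRs, in 64.2% of the genes with measured tails, in 72.7% of those at least 10 nt longer and in 64.0% of those at least 10 nt shorter. Within the last 150 nt the shares were 23.7%, 24.1%, 28.5% and 26.3% in the same order. After light stimulation of visual cortex, the study found no significant link between a cytoplasmic polyadenylation element and longer tails. The 3′ UTRs of the longer group were themselves longer, with a median of 1480 nt beside 1145 nt for all genes with measured tails, and the part of UTR length was not tested.

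Early genes differed in tail length in both directions. Fos tails averaged 110.0 nt in the unstimulated culture, 130.3 nt at 10 min and 127.8 nt at 30 min, and Egr1 tails 139.8, 151.7 and 146.7 nt, so both were long at 10 min already. These 2 were the only early transcription factors past 2-fold in tags with enough tags in both cultures. The other 6 past 2-fold in tags had 5 to 39 tags at 10 min. Among them Junb tails went from 139.3 to 134.9 nt, Fosb tails from 133.2 to 137.3 nt, Egr2 tails from 105.4 to 138.3 nt, Egr4 tails from 114.7 to 130.8 nt, Nr4a1 tails from 136.5 to 148.5 nt and Ier2 tails from 133.2 to 140.4 nt. Dusp1 tails (25 tags at 10 min) went from 97.5 to 112.4 nt. Of the early genes under 2-fold in tags, Jun tails averaged 104.8 nt at 10 min and 119.2 nt at 30 min, Klf6 tails 93.6 and 105.6 nt, and Jund tails 105.9 and 108.3 nt. The median difference of the 6 genes of the early transcription-factor list with enough tags, Btg2 among them, was 7.17 nt. Among genes with at least 100 tags in both cultures, the longest gain was that of Pcp4, a calmodulin-binding peptide, from 95.3 to 116.5 nt, and the largest loss that of Itgb1, the beta 1 integrin, from 124.8 to 110.2 nt. All 10 of the genes with the longest gains in that class (15.4 to 21.2 nt) had a shorter mean at 10 min than in the unstimulated culture, but the 10 min library enters both differences.

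**Figure D4:**
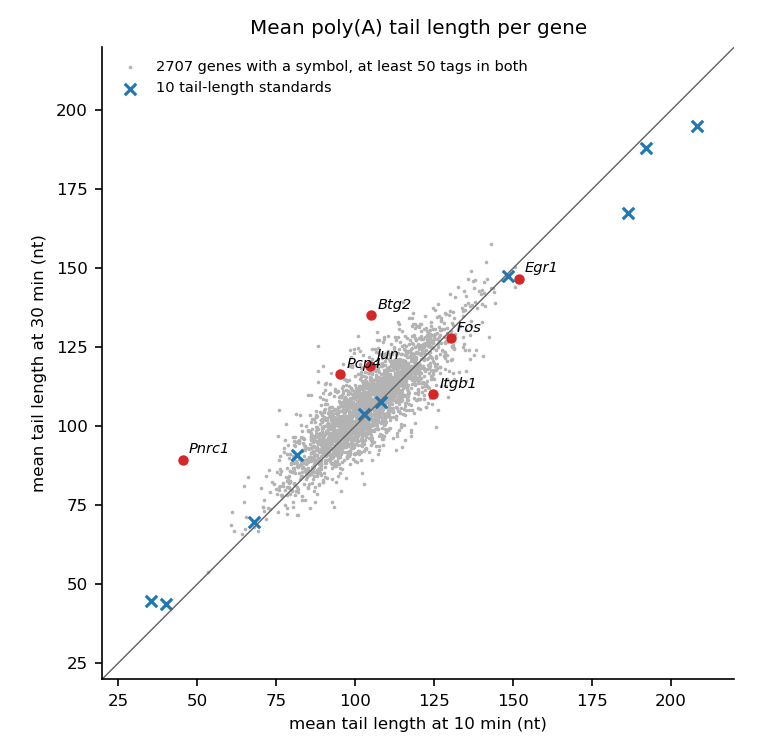
Mean poly(A) tail length per gene at 30 min against 10 min, in nt, for genes with a symbol and at least 50 tags in both libraries (gray), named genes (red) and synthetic standards (blue crosses). The line marks equal length. Pnrc1 lies far above it, at 45.5 and 89.5 nt, Fos and Egr1 lie just below it, and the longest standards lie below it.

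The plot of tail lengths places these genes among the rest. Across the 2717 genes the Spearman correlation of the tail difference with the log2 ratio of tags was -0.05. Pnrc1 and Btg2 had tag ratios whose intervals include 1, while Fos, with 6.98-fold more tags, had tails 2.49 nt shorter at 30 min.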

How the data were processed

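The deposited tables give, per RefSeq transcript, read counts and RPM for RNA-seq and RPFs, and tag counts with mean tail lengths for TAIL-seq. The authors counted whole reads in coding sequences, leaving out the initial 50 nt, with STAR 2.4.2 and bedtools among the tools in their notes, and scaled RPM to all mapped reads. The authors' log2 TE columns, made from these values, were used for an alternative, and fold changes between samples were not taken from any table. Tail lengths came from a hidden Markov model of the sequencing signal. RNA-seq rows for spike-in standards (0.00565% and 0.0747% of reads at 10 and 30 min) and tail standards (13.9% and 9.29% of tags) were left out of totals. Of other samples, only the libraries of the unstimulated DIV10 culture were used, as a level. Of 16100 accessions, 99.2% matched a symbol in RefSeq for GRCm38.p6.

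Counts were scaled by reads or tags on genes, and a ratio carries the 95% Clopper-Pearson interval of the share of its 2 counts. PCR reads are not independent molecules, so intervals and SEs cover counting error only. Filters were 10 RPM in either RNA-seq or RPF library, 50 tags in either TAIL-seq library, 10 RPM in both RNA-seq libraries for TE, and 50 tags in both for tails. A filter on either library admits genes through the library where they are high, so counts of calls are partly set by it. Thresholds were 2-fold and 10 nt. No test was possible with 1 library per culture. At 10 RPM the RNA-seq libraries hold 24.2 and 58.1 reads. The genes named were the tested members of 4 early-gene lists, the genes at least 1.5-fold apart in all 3 assays (up to 12 each way), the 10 highest and lowest TE differences (at least 30 RPM and 20 RPFs) and tail differences (at least 100 tags), and markers, and others are said to be chosen after their values were seen. The members and lists were chosen with earlier results of these data known. Ratios and intervals were tested on simulated data. Python 3.11.15, numpy 2.4.6, pandas 2.3.3, scipy 1.17.1 and matplotlib 3.10.9 were used. Alternatives were other scalings, filters and thresholds, and centring within bins of coding GC or length.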

Additional observations from a re-analysis of the deposited data

How the results depend on the processing

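No paired analysis was possible because each time point was 1 culture with 1 library per assay, so no replicate was left out and no result had a test.

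RNA-seq called 196 genes (39 higher, 157 lower), and 1351 with the authors' RPM (5 higher, 1346 lower), 15 with at least 30 RPM, 2108 with 3 reads over both libraries, 933 at 1.5-fold and 143 centred within coding GC bins (38 higher, 105 lower). RPFs called 31 genes, and 51 with the authors' RPM (50 higher, 1 lower), 13 with at least 30 RPM and 313 at 1.5-fold. Tags called 28 genes, and 162 with at least 20 tags and 215 at 1.5-fold. Genes past the fold the same way in 2 or 3 assays numbered 3, and 40 at 1.5-fold. TE called 1072 genes, and 200 with at least 30 RPM, 61 centred on the median, 44 centred within coding length bins and 52 within coding GC bins. Tails called 460 genes, and 91 with at least 100 tags, 17 with 200, 140 at 15 nt and 807 at a log2 ratio of 0.1. These follow from the filters, thresholds and totals themselves. Median-of-ratios scaling moved the log2 ratios by -0.01 (RNA-seq), -0.04 (RPFs) and 0.02 (tags). The median TE difference of ribosomal proteins (-0.48) was -0.30 within length bins and -0.38 over tags, that of mitochondrial ribosomal proteins (-0.25) was -0.0801 and -0.0480, and that of oxidative phosphorylation (-0.15) reversed to 0.0556 within length bins. The cause was not tested. For 12 single genes the RNA-seq ratio was set beside that of median-of-ratios scaling and those of tags and RPFs, 36 values in all. Of these, 29 lay inside the RNA-seq counting interval, 7 lay outside and 0 reversed. The rescaling moves all genes alike, and tags and RPFs are other assays, not alternatives in processing. The interval is wide for genes with few reads, so lying inside it shows little. Depth limits the RNA-seq values: Egr1 had 5 reads at 10 min, and a gene at the RPM minimum has 24.2.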

Other observations

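Outside the early lists, 15 genes were at least 2-fold higher in RPFs at 30 than at 10 min (2.07-fold to 4.59-fold), and all 15 had a lower RPF CPM at 10 min than in the unstimulated culture, at 27.4% to 96.7% of that level. The 10 min library enters both ratios. At 30 min the 15 genes stood at 65.1% to 217% of the unstimulated level, with a median of 176%. Only Mapk6 was below that level at 30 min. Atp11b, a phospholipid flippase, had 15.2, 4.71 and 21.7 CPM of RPFs in the unstimulated, 10 min and 30 min cultures (4.59-fold between the last 2, 2.88 to 7.53), and its RNA-seq level was 1.24-fold higher (0.90 to 1.74). Clk1, a kinase of splicing factors, had 15.8, 7.98 and 24.3 CPM of RPFs (3.04-fold, 2.07 to 4.52). Mapk6, an atypical MAP kinase, had 31.8, 8.70 and 20.7 (2.37-fold, 1.61 to 3.53) with tags at 0.95 times (0.69 to 1.31). The 11 early genes past 2-fold in RPFs stood at 122% to 349% of the unstimulated level at 10 min.

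Outside the early lists, 13 genes were at least 2-fold higher in tags (2.00-fold to 2.51-fold), from 15 to 29 tags at 10 min. All 13 were thus short of the minimum of tags at 10 min and passed the filter through the 30 min culture alone. Such entry favours genes higher at 30 min, so their number and direction are partly set by the filter. The 9 of them tested in RPFs ranged from 0.81 to 1.52 times. Prdx5, a peroxiredoxin, took 2789 CPM of RNA-seq at 10 min and 6666 at 30 min (2.39-fold, 2.26 to 2.53), with 31 and 35 tags and RPFs at 0.85 times (0.77 to 0.93). Vsig8 had 36, 2 and 65 RNA-seq reads in the unstimulated, 10 min and 30 min cultures and 0, 1 and 0 RPFs, a ratio of 21.5 in RNA-seq (5.71 to 181). Of 6 astrocyte markers with enough reads and tags, 6 had a higher ratio in RPFs than in tags (median difference 0.25), with summed levels at 1.05 times in RPFs and 0.87 times in tags. These genes were chosen after their values were seen.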
